A study of Mus musculus with 9 samples.

Results

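Collagen genes were taken from the deposited gene table by their symbols, Col followed by a number, the letter a and a second number. The rule found 38 of the 17565 genes in the table. They were divided into 11 genes of fibrillar collagens, 6 of type IV, the basement membrane class, 3 of type VI and 18 of other classes. The cells were MS1, an endothelial line from the mouse pancreas, profiled by sequencing of polyadenylated RNA in 3 groups of 3 libraries. The Ctrl group carried the lentiviral backbone pCDH-puro, the TAZ4A group carried pCDH-TAZS4A and the TAZ-CAMTA1 group pCDH-TAZ-CAMTA1, and no other treatment is named. TAZ is a transcriptional co-activator of the Hippo pathway, TAZ4A is a mutant that escapes inhibition by the pathway's kinases, and TAZ-CAMTA1 is the fusion protein of the vascular cancer epithelioid hemangioendothelioma. Neither the promoter of the vectors nor whether lines were clones is given, and nothing says that replicates came from separate cultures, so p-values measure the spread between these libraries, which may be technical.

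Collagens are secreted proteins in which alpha chains wind around each other into a stiff helix. Fibrillar collagens such as types I, III and V form the cables of connective tissue. Type IV forms the sheet-like network of the basement membrane on which endothelial cells rest. Type VI forms beaded filaments between the sheet and the cables. The remaining classes include network-forming type VIII, anchoring type VII, types that sit on the surface of fibrils (IX, XII, XIV, XX, XXII), types XV and XVIII of vascular basement membranes, and membrane-spanning types such as XVII. Some helices need partner chains from different genes. Collagen chains are hydroxylated, trimmed and cross-linked by a shared set of enzymes.

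Whole reads could be recovered from the deposited values, 21966004 to 34224715 reads assigned to genes per library, so that 3 reads, the limit that a count of 0 allows, correspond to 0.0878 to 0.139 CPM (the authors' deposited values, which relate reads to a scaled total for the library). These limits cover counting error only. The library labelled TAZ-CAMTA1 replicate 2 stood apart. Its log2 values correlated at 0.963 or less with the other libraries of its group, against at least 0.997 within the other groups, and genes of ribosomal proteins took 3.99% of its reads against 1.88 to 2.16% elsewhere. Results are therefore given with and without it. Of the genes carried by the constructs, Camta1 had 12.5 to 13.5 CPM in the TAZ-CAMTA1 libraries and 3.41 to 5.20 CPM in the others. Mouse Wwtr1, which encodes TAZ, had 319, 320.4 and 335 CPM in TAZ4A, 492, 328 and 491 CPM in TAZ-CAMTA1 and 536 to 570.3 CPM in Ctrl. It was lower in TAZ4A than in Ctrl (log2 fold change -0.76, limma adjusted p = 0.00571), so no raised level marked the TAZ4A libraries. Whether reads of the TAZ construct could be counted for the mouse gene is not given in the sources used here.

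The endothelial label was checked with 12 marker genes, of which 11 were tested. Pecam1 and Cdh5, cell adhesion proteins of endothelium, had at least 1068 CPM in every library, while Cldn5, of the tight junction, had 0 to 2 reads per library. The summed level of the 12 markers was 10348 to 10683 CPM in Ctrl, 6908 to 7106 in TAZ4A and 9384 to 11737 in TAZ-CAMTA1. In TAZ4A against Ctrl 0 of the 11 rose and 5 fell by limma, where 11.7% of all genes were lower. Without TAZ-CAMTA1 replicate 2 all 11 fell, where the calls over all genes went from 3077 to 7193 and 30.6% of genes were lower. Fibroblast markers (8, of which 3 were tested) summed to 24.97 to 27.7 CPM in Ctrl, 32.8 to 34.3 in TAZ4A and 45.8 to 49.9 in TAZ-CAMTA1, most of it Fbln1, and 2 of the 3 rose with each construct. Pdgfra, a growth factor receptor of fibroblasts, had a mean of 2.95 CPM in Ctrl, 9.03 with TAZ4A and 7.19 with TAZ-CAMTA1. It rose by 1.46 and 1.11 on the log2 scale (adjusted p = 0.00113 and 0.00477). Fbln1 was higher in TAZ-CAMTA1 than in TAZ4A by 0.83 (adjusted p = 0.000159). Dcn had 0 reads in Ctrl, about 2.04 CPM in TAZ4A and 0, 1 and 0 reads in TAZ-CAMTA1, and Lum, Postn and Dpt had at most 1 read in any library. Smooth muscle and pericyte markers (8, of which 3 were tested) summed to 2.54 to 3.16, 12.3 to 13.9 and 5.37 to 6.54 CPM, with Myh11 and Rgs5 at 0.146 CPM or less. All 3 rose in TAZ4A against Ctrl, among them Cnn1, of contractile cells, with 0, 0 and 1 reads in Ctrl, 224, 268 and 227 in TAZ4A and 0 in each TAZ-CAMTA1 library. Cnn1, Acta2 and the fibroblast marker Dcn reached 0.5 CPM, the level a gene needed in 3 libraries to be tested, in the TAZ4A libraries alone, so their higher level there was a condition of their being tested. Pdgfrb, of pericytes, was tested without that condition and rose from 2.49 to 4.30 CPM in TAZ4A (0.68, adjusted p = 0.00347) and to 5.19 CPM in TAZ-CAMTA1 (0.92, adjusted p = 0.000673). The 5 leukocyte markers in the table summed to 451 to 524, 395 to 404 and 462 to 713 CPM, almost all of it Cd68, with Ptprc at 0.186 CPM or less, and of the 2 tested 1 rose with each construct. The gene that rose was Lyz2, with 0, 0 and 1 reads in Ctrl, 1.45 CPM in TAZ4A and 6.83 in TAZ-CAMTA1. Its log2 fold changes were 1.91 and 3.82 (limma adjusted p = 0.000145 and 4.98e-06), and it passed the filter through construct libraries alone. Of all genes, 13.2% were higher in TAZ4A and 16.8% in TAZ-CAMTA1 than in Ctrl. The 4 epithelial markers in the table summed to 20.2 to 23.5, 18.8 to 19.9 and 20.1 to 47.4 CPM, almost all of it Krt18, the 1 tested, which was not called. The part of these other markers in the collagen results was not tested. In bulk RNA, a change in every cell and a change in the share of a few cells cannot be told apart.

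Sequences are shown for the collagen genes whose arrangement or splicing the results below turn on. Col4a5 and Col4a6 lie head to head on chromosome X, Col4a6 on the minus strand from 141474076 and Col4a5 on the plus strand from 141475419, with 1342 bases between the starts, and both were higher in TAZ4A. The first intron of transcript Col4a5-201 had 1 read, in TAZ-CAMTA1 replicate 1. That of Col4a5-202 had 3, 3 and 4 reads in Ctrl, 37, 52 and 33 with TAZ4A and 17, 0 and 1 with TAZ-CAMTA1. Which start these cells used was not tested. Col3a1 is shown because it was higher with both constructs and because the letters GGAATG, the core recognised by TEAD proteins, which carry TAZ on DNA, stand in its upstream window on the minus strand as CATTCC, written in capitals, 168 bases before the start. The windows are the parts of the 250 bases before the RefSeq start in GRCm38.p6 that hold no exon of a collagen gene in GENCODE vM21: Col3a1 from chr1:45311288-45311537, plus strand, Col4a6 from chrX:141474077-141474326, minus strand, and Col4a5 from chrX:141475169-141475384, plus strand.
Col3a1: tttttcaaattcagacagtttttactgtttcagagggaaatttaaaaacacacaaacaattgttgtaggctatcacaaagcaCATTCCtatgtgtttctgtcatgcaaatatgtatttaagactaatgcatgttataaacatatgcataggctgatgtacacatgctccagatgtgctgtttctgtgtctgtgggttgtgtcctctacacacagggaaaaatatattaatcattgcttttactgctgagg
Col4a6: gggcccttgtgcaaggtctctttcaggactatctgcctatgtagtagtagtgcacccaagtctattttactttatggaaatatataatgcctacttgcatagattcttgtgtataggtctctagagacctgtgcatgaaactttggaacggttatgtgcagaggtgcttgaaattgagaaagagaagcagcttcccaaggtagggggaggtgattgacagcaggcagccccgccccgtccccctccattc
Col4a5: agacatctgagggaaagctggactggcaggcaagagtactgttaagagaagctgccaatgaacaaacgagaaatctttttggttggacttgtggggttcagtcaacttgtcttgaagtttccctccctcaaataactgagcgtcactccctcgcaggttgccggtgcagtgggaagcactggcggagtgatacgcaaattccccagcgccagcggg

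Across the RefSeq table, 12.6% of 32851 upstream windows of 250 bases hold GGAATG on either strand, and 6.75% hold TGANTCA, the site of AP-1 proteins. The table had 33 windows for 30 of the 38 collagen genes. GGAATG was found in 4 of the 33, those of Col3a1, Col20a1, Col6a2 and Col18a1, and TGANTCA in 1, that of Col6a1, where it reads TGACTCA 90 bases before the start. These shares are near those of all windows, and a match is a description of the letters, not of binding.

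Of the 38 genes, 24 passed the filter of at least 0.5 CPM in at least 3 libraries and were tested with limma. The other 14 reached at most 0.0307 to 0.523 CPM in their highest library. They included Col2a1, Col5a2 and Col24a1 of the fibrillar class, Col4a3 and Col4a4 of the basement membrane class, Col6a2 and Col8a2. A gene could pass through its high group alone, as Col4a6, Col11a1 and Col14a1 did through TAZ4A. Col1a1 and Col12a1 passed through libraries of both constructs, with no Ctrl library at 0.5 CPM. For all of these, a level above Ctrl was a condition of being tested. The counts therefore describe the genes, and the background share of all genes is set beside them. Just inside the filter lay Col1a2, which passed with 13 reads in Ctrl replicate 1, 16 and 17 in TAZ-CAMTA1 replicates 2 and 3 and 8 at most elsewhere. Just outside lay Col6a2, with 10, 0 and 0 reads in Ctrl, 4, 3 and 6 with TAZ4A and 2, 10 and 12 with TAZ-CAMTA1.

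Per length, the collagen mRNA of control cells was almost all type IV. Col4a1 and Col4a2, the chains of the basement membrane network found in nearly all tissues, made up 96.4, 96.5 and 96.5% of the summed collagen TPM (a level scaled for transcript length) in the Ctrl libraries. The share was 82.3, 82.5 and 81.6% with TAZ4A and 94.8, 93.8 and 94.8% with TAZ-CAMTA1. No TAZ4A library reached a library of another group. Two-sided exact permutation tests of this share gave p = 0.1 in each comparison, which is the smallest that 3 against 3 libraries allow.

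The summed TPM of all collagen genes was 1959 ± 89.2 in Ctrl (SD, n = 3), 1325 ± 44.4 in TAZ4A and 2243 ± 679 in TAZ-CAMTA1. In TAZ-CAMTA1 it was 2717 and 2546 in replicates 1 and 3 and 1466 in replicate 2, so that its mean was above that of Ctrl, but its libraries lay on both sides of the Ctrl range (exact permutation p = 0.4). Without Col4a1 and Col4a2 the order was different: the remaining collagens summed to 66.2 to 72.2 TPM in Ctrl, 234 to 239 in TAZ4A and 90.7 to 142 in TAZ-CAMTA1, with no overlap between groups. Fibrillar genes summed to 28.5 ± 1.61 TPM in Ctrl, 54.0 ± 2.04 in TAZ4A and 42.9 ± 9.95 in TAZ-CAMTA1. These fibrillar sums did not overlap between groups. Type VI genes summed to 7.36 ± 0.631, 20.8 ± 0.752 and 24.9 ± 6.62 TPM, and the other classes to 24.5 ± 0.927, 124.6 ± 1.95 and 44.9 ± 6.97 TPM. Exact permutation gave p = 0.1 for each difference in these class sums except type VI between the constructs (p = 0.4).

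**Figure D1:**
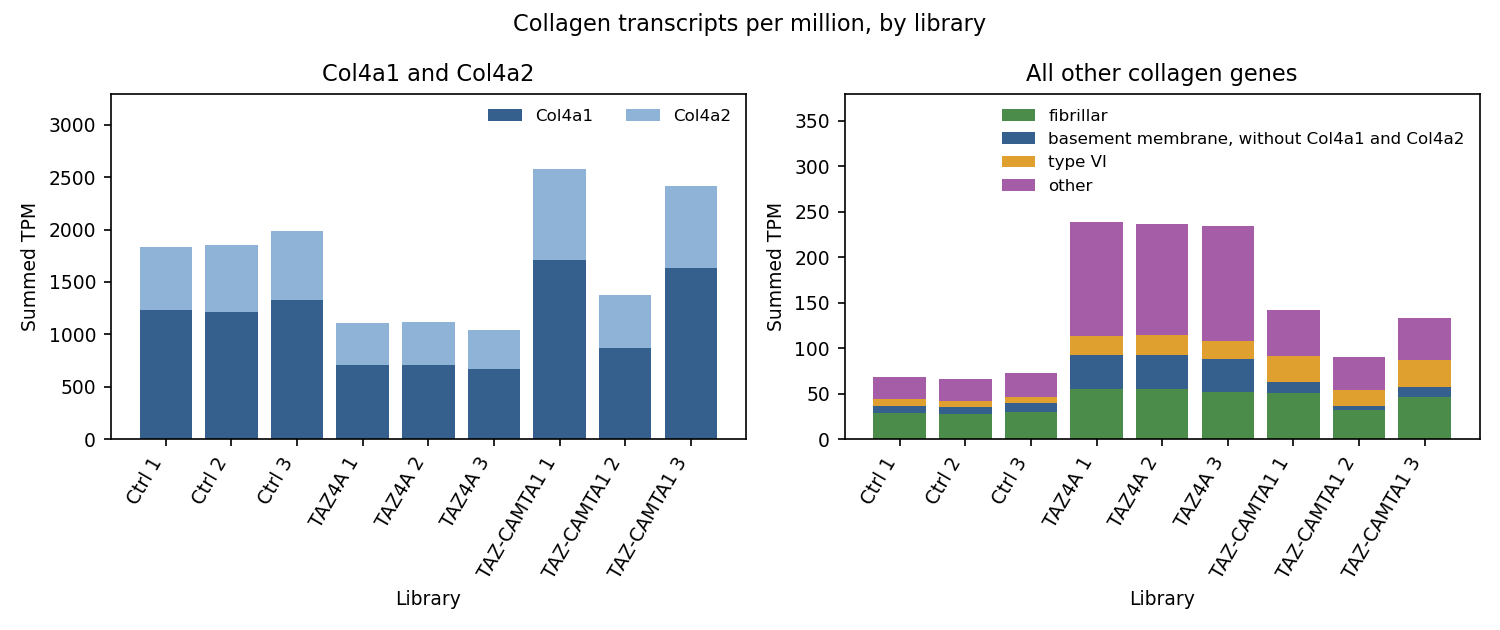
Summed TPM of collagen genes in each of the 9 libraries, with Col4a1 and Col4a2 stacked on the left and the other collagens stacked by class on the right, on separate scales. The left bars are shortest in TAZ4A, and the right bars are tallest there, at 234 to 239 TPM.

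In TAZ4A against Ctrl 14 of the 24 tested collagens were higher and 2 lower, where 24.9% of all 12350 genes tested were called by limma (adjusted p under 0.05), 13.2% higher and 11.7% lower. The median log2 fold change of the collagens was 0.87, beside -0.0089 for all genes. The 14 higher became 10 of 21 tested when any 1 TAZ4A library was left out. Col4a6, Col11a1 and Col14a1 then failed the filter, and Col27a1 lost its call. In TAZ-CAMTA1 against Ctrl 14 were higher and 0 lower, against 32.1% of all genes called, 16.8% higher and 15.3% lower, and the median was 0.52 beside -0.034. That 0 is 0 at an unadjusted p under 0.05 and 0 by edgeR and DESeq2 as well. In TAZ-CAMTA1 against TAZ4A 10 were higher and 7 lower, against 37.9% of all genes called, 19.4% higher and 18.5% lower, and the median was 0.20 beside -0.020. The 7 lower became 3 (Col4a5, Col8a1 and Col12a1) when any 1 TAZ4A library was left out: Col4a6, Col11a1 and Col14a1 then failed the filter and Col5a1 lost its call. They were also 3 on TPM, where 15 collagens were tested.

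Without TAZ-CAMTA1 replicate 2, 23 collagens were tested and the counts were 14 higher and 2 lower, 18 higher and 0 lower, and 11 higher and 8 lower. The background was then 58.7% (28.1% higher and 30.6% lower), 60.9% (28.3% and 32.6%) and 63% (30.5% and 32.5%) of 12255 genes called. All 16, 14 and 17 collagens called with 9 libraries had levels that did not overlap between the groups compared. The calls came from the same values, and the share without overlap among all genes was not counted, so this adds nothing to them. The comparisons share libraries, so their counts are not independent. In the authors' deposited table, 16 of the 38 collagens were higher and 2 lower in TAZ4A against Ctrl, 16 and 0 in TAZ-CAMTA1 against Ctrl, and 10 and 6 in TAZ-CAMTA1 against TAZ4A at a false discovery rate under 0.05.

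**Figure D2:**
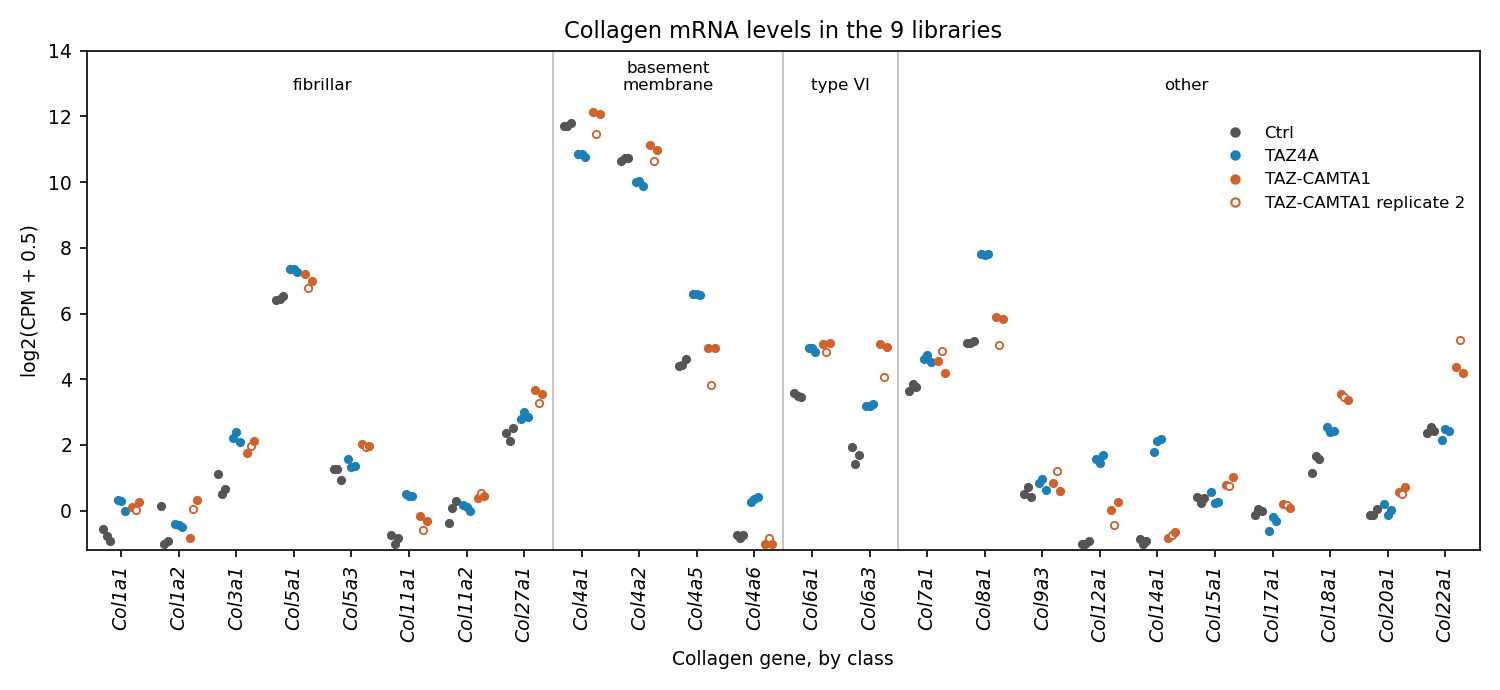
Level of each of the 24 tested collagens in each library as log2(CPM + 0.5), by class, with 1 point per library and TAZ-CAMTA1 replicate 2 as an open point. Col4a1 and Col4a2 lie highest in every library, and the TAZ4A points of Col4a5, Col4a6, Col8a1, Col12a1 and Col14a1 stand above the points of both other groups.

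In the basement membrane class the abundant and the scarce pair of chains moved in opposite directions with TAZ4A. Col4a1 and Col4a2 lie head to head on chromosome 8, with starts at 11312826 on the minus strand and 11312829 on the plus strand in the deposited annotation (mm10). Col4a1 had 3341, 3379 and 3540.4 CPM in Ctrl, 1861, 1871 and 1741 with TAZ4A and 4544, 2855 and 4295 with TAZ-CAMTA1. Every TAZ4A library was below every Ctrl library, and TAZ-CAMTA1 replicate 2 lay below Ctrl while its sister libraries lay above.

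Col4a1 fell in TAZ4A against Ctrl by 0.91 on the log2 scale (SE 0.159, limma adjusted p = 0.00338). In TAZ-CAMTA1 against Ctrl its log2 fold change was 0.16 ± 0.159 (SE, adjusted p = 0.467), and without replicate 2 it was 0.37 ± 0.0465 (adjusted p = 4.72e-06). Col4a2, which encodes the partner chain, had 1585, 1701 and 1720.3 CPM in Ctrl, 1029.8, 1039 and 948 with TAZ4A and 2234, 1596 and 2006 with TAZ-CAMTA1. It fell in TAZ4A by 0.73 (SE 0.120, adjusted p = 0.00238), and in TAZ-CAMTA1 its log2 fold change was 0.21 (adjusted p = 0.216), or 0.34 without replicate 2 (adjusted p = 6.68e-05).

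The ratio of Col4a1 to Col4a2 in TPM was 2.05, 1.93 and 2.00 in Ctrl and 1.76, 1.75 and 1.78 in TAZ4A. The main network type IV helix contains more alpha-1 than alpha-2 chains. In TAZ-CAMTA1 the ratio was 1.98 and 2.08 in replicates 1 and 3, within or just above the Ctrl range, and 1.74 in replicate 2. Exact permutation gave p = 0.1 for TAZ4A against Ctrl, the smallest possible, and p = 0.8 for TAZ-CAMTA1 against Ctrl.

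Col4a5 encodes the alpha-5 chain of specialised basement membranes such as that of the kidney glomerulus, where its loss causes Alport syndrome. It had 20.8, 21.2 and 24.1 CPM in Ctrl, 95.9, 95.6 and 93.4 with TAZ4A and 30.2, 13.8 and 30.7 with TAZ-CAMTA1. The TAZ4A libraries lay far above all others, and the other groups overlapped. Its log2 fold change was 2.09 ± 0.267 in TAZ4A against Ctrl (adjusted p = 0.00059) and -2.00 ± 0.267 in TAZ-CAMTA1 against TAZ4A (adjusted p = 0.000612). In TAZ-CAMTA1 against Ctrl it was 0.09 (adjusted p = 0.828), and without replicate 2 it was 0.46 (adjusted p = 1.4e-05).

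Col4a6, its head-to-head neighbour, encodes the alpha-6 chain, which pairs with alpha-5 in some basement membranes. It had 2, 2 and 3 reads in Ctrl, 23, 27 and 27 with TAZ4A and 0, 2 and 0 with TAZ-CAMTA1. The 77 TAZ4A reads against 7 in Ctrl correspond to 9.65-fold after scaling (95% counting interval 4.47 to 24.8), and the 77 against 2 in TAZ-CAMTA1 to 33.1-fold (8.85 to 278). Only the 3 TAZ4A libraries reached the level needed for testing, so the limma calls (adjusted p = 4.89e-05 and 2.33e-05) concern a gene that was tested because TAZ4A was high, and it was not tested when a TAZ4A library was left out. Col4a5 remained scarce beside Col4a1: its TPM was 0.635 to 0.695% of that of Col4a1 in Ctrl, 5.21 to 5.46% in TAZ4A and 0.491 to 0.727% in TAZ-CAMTA1. Col4a3 and Col4a4, the partners of alpha-5 in the glomerulus, had at most 4 reads in any library.

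Of the 4 tested basement membrane genes, 2 rose and 2 fell in TAZ4A against Ctrl and 2 rose and 2 fell in TAZ-CAMTA1 against TAZ4A, with the pairs reversed. Between TAZ-CAMTA1 and Ctrl 0 of 4 were called (0 at an unadjusted p under 0.05), and 3 rose without replicate 2. Of all genes, 24.9% were called in TAZ4A against Ctrl, 32.1% in TAZ-CAMTA1 against Ctrl and 37.9% between the constructs. Without replicate 2, 28.3% of all genes were higher and 32.6% lower in TAZ-CAMTA1 than in Ctrl.

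Among fibrillar genes, 5 of 8 tested rose and 0 fell in TAZ4A against Ctrl (0 lower at an unadjusted p under 0.05), and 6 rose and 0 fell in TAZ-CAMTA1 against Ctrl (also 0 lower at an unadjusted p under 0.05). In these comparisons 13.2 and 16.8% of all genes were higher, and 11.7 and 15.3% lower. Col5a1, whose chain starts the assembly of fibrils, was the most abundant per length, at 25.4 ± 1.50 TPM in Ctrl, 47.7 ± 1.62 in TAZ4A and 35.6 ± 8.76 in TAZ-CAMTA1. In CPM it had 84.5, 86.3 and 91.8 in Ctrl, 162, 163 and 152 with TAZ4A and 146, 108 and 125 with TAZ-CAMTA1, so the 3 groups did not overlap. Its log2 fold change was 0.86 ± 0.109 in TAZ4A against Ctrl (adjusted p = 0.000533) and 0.52 in TAZ-CAMTA1 against Ctrl (adjusted p = 0.00721). The fall of 0.34 in TAZ-CAMTA1 against TAZ4A (adjusted p = 0.0384) was lost when any Ctrl or TAZ4A library or TAZ-CAMTA1 replicate 3 was left out (adjusted p = 0.0593 to 0.117).

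The usual partner of Col5a1, Col5a2, was almost unread, with 3, 0 and 1 reads in Ctrl, 3, 8 and 4 with TAZ4A and 0, 7 and 5 with TAZ-CAMTA1. Col5a3, the third type V chain, had 1.74 ± 0.288 CPM in Ctrl, 2.16 ± 0.246 in TAZ4A and 3.45 ± 0.0961 in TAZ-CAMTA1. It rose in TAZ-CAMTA1 against Ctrl (log2 fold change 0.83, adjusted p = 0.00117) and against TAZ4A (0.57, adjusted p = 0.00626).

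Type III and type I genes, the main collagens of connective tissue, were low in all groups. Col3a1 had 1.67, 0.927 and 1.07 CPM in Ctrl, 4.15, 4.71 and 3.78 with TAZ4A and 2.90, 3.43 and 3.84 with TAZ-CAMTA1. Both construct groups lay above Ctrl and overlapped each other. It rose by 1.47 ± 0.173 (log2, adjusted p = 0.000356) and 1.19 ± 0.173 (adjusted p = 0.0012). Col1a1 had 4, 3 and 1 reads in Ctrl, 24, 25 and 16 with TAZ4A and 19, 15 and 16 with TAZ-CAMTA1, or 7.13-fold (95% counting interval 3.41 to 17.2) and 6.38-fold (3.00 to 15.6) the Ctrl level. Col1a2, its partner in type I, was not called in any comparison and failed the filter without TAZ-CAMTA1 replicate 2.

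Col11a1, a minor fibrillar chain of cartilage that forms helices with type V chains elsewhere, had 2, 0 and 2 reads in Ctrl, 30, 29 and 28 with TAZ4A and 13, 5 and 7 with TAZ-CAMTA1. The ratios to Ctrl were 19.1 (95% counting interval 7.19 to 71.6) and 6.38 (2.20 to 25.2). The call in TAZ-CAMTA1 against Ctrl (log2 fold change 0.51, adjusted p = 0.0167) was lost without Ctrl replicate 2 (adjusted p = 0.0652). Col27a1, a fibrillar collagen of developing cartilage, had 4.57 ± 0.695 CPM in Ctrl, 6.89 ± 0.560 in TAZ4A and 10.9 ± 1.55 in TAZ-CAMTA1. Its rise in TAZ-CAMTA1 against Ctrl was 1.17 (log2, adjusted p = 0.000436). Its rise of 0.55 in TAZ4A against Ctrl (adjusted p = 0.0208) was lost without Ctrl replicate 1 or 2 or any TAZ4A library (adjusted p = 0.0513 to 0.089). Col11a2, the partner of Col11a1 in cartilage, had 0.522 ± 0.225 CPM in Ctrl, 0.565 ± 0.0663 in TAZ4A and 0.872 ± 0.0688 in TAZ-CAMTA1 and was not called (adjusted p = 0.0646 in TAZ-CAMTA1 against Ctrl).

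Both tested type VI genes rose with both constructs, and they differed in size. Beside them, 13.2% of all genes were higher than Ctrl in TAZ4A and 16.8% in TAZ-CAMTA1. Col6a1, the alpha-1 chain, had 11.5, 10.7 and 10.4 CPM in Ctrl, 30.2, 30.4 and 27.8 with TAZ4A and 33.3, 27.7 and 34.0 with TAZ-CAMTA1. Each construct group lay above Ctrl, and they overlapped each other. Its log2 fold changes were 1.40 ± 0.0965 (adjusted p = 1.44e-05) and 1.50 ± 0.0965 (adjusted p = 1.6e-05), and the difference between the constructs was 0.10 (adjusted p = 0.448; 0.19 without TAZ-CAMTA1 replicate 2, adjusted p = 0.0264).

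Col6a3, the large alpha-3 chain, had 3.30, 2.18 and 2.76 CPM in Ctrl, 8.64, 8.54 and 9.02 with TAZ4A and 32.9, 16.1 and 31.4 with TAZ-CAMTA1. The 3 groups did not overlap, with TAZ-CAMTA1 replicate 2 nearest to TAZ4A. It rose by 1.52 ± 0.256 in TAZ4A (adjusted p = 0.00267) and 3.02 ± 0.256 in TAZ-CAMTA1 (adjusted p = 7.38e-05), and the difference between the constructs was 1.50 ± 0.256 (adjusted p = 0.00223). The ratio of Col6a1 to Col6a3 in TPM was 9.49, 13.3 and 10.3 in Ctrl, 9.55, 9.71 and 8.40 with TAZ4A and 2.76, 4.69 and 2.95 with TAZ-CAMTA1. Type VI filaments need an alpha-2 chain, encoded by Col6a2, whose reads stayed at or under 12 in every library.

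Of the 10 tested genes of other classes, 5 rose and 0 fell in TAZ4A against Ctrl (1 lower, Col17a1, at an unadjusted p under 0.05), 6 rose and 0 fell in TAZ-CAMTA1 against Ctrl (0 lower at an unadjusted p under 0.05), and 5 were higher and 3 lower in TAZ-CAMTA1 against TAZ4A. Those higher in TAZ4A were Col8a1, Col12a1 and Col14a1, and those higher in TAZ-CAMTA1 were Col15a1, Col17a1, Col18a1, Col20a1 and Col22a1. In the same order of comparisons, 13.2, 16.8 and 19.4% of all genes were higher, and 11.7, 15.3 and 18.5% lower.

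Col8a1, a network-forming collagen made by vascular endothelium, had 33.9, 33.8 and 35.3 CPM in Ctrl, 225, 218 and 225 with TAZ4A and 58.6, 32.4 and 56.3 with TAZ-CAMTA1. TAZ4A lay above all other libraries, and TAZ-CAMTA1 replicate 2 fell below the Ctrl range. At 109.8 ± 2.51 TPM in TAZ4A it was the most abundant collagen per length after Col4a1 and Col4a2. Its log2 fold change was 2.68 ± 0.198 in TAZ4A against Ctrl (adjusted p = 2.39e-05), and in TAZ-CAMTA1 against TAZ4A it fell by 2.22 (adjusted p = 6.52e-05). In TAZ-CAMTA1 against Ctrl it was 0.46 (adjusted p = 0.11), or 0.73 without replicate 2 (adjusted p = 4.1e-09). Col8a2, which encodes the other type VIII chain, had at most 2 reads in any library.

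Col12a1 and Col14a1 encode collagens that coat fibrils and were nearly unread in Ctrl. Col12a1 had 0, 0 and 1 reads in Ctrl, 79, 77 and 90 with TAZ4A and 17, 7 and 16 with TAZ-CAMTA1. The 246 TAZ4A reads correspond to 216-fold the Ctrl level, with a 95% counting interval of 38.4 to 8557, and the 40 reads of TAZ-CAMTA1 to 40.8-fold (6.92 to 1653). Col14a1 had 1, 0 and 1 reads in Ctrl, 95, 131 and 132 with TAZ4A and 2, 3 and 3 with TAZ-CAMTA1. The ratio of TAZ4A to Ctrl was 157 (43.2 to 1301) and that of TAZ4A to TAZ-CAMTA1 was 38.4 (19.3 to 89.7). Col14a1 was not called in TAZ-CAMTA1 against Ctrl (log2 fold change 0.18, adjusted p = 0.284), while Col12a1 was (0.92, adjusted p = 0.00429). Both genes reached the level needed for testing in construct libraries alone, so their calls against Ctrl carry that condition. Dcn, a small fibril-coating proteoglycan and a fibroblast marker, likewise had reads almost only in TAZ4A.

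Col18a1, whose C-terminal fragment is endostatin, had 1.72, 2.66 and 2.44 CPM in Ctrl, 5.29, 4.77 and 4.85 with TAZ4A and 11.3, 10.5 and 9.85 with TAZ-CAMTA1. The 3 groups did not overlap, and TAZ-CAMTA1 replicate 2 lay between the others of its group. It rose by 0.99 ± 0.139 (log2, adjusted p = 0.000928) and 2.01 ± 0.139 (adjusted p = 2.5e-05), and the constructs differed by 1.01 (adjusted p = 0.000679). Its relative Col15a1 had 0.779 ± 0.0802 CPM in Ctrl, 0.790 ± 0.175 in TAZ4A and 1.30 ± 0.195 in TAZ-CAMTA1 (log2 fold change 0.49 in TAZ-CAMTA1 against Ctrl, adjusted p = 0.0202). That call was lost without Ctrl replicate 2 or 3 or TAZ-CAMTA1 replicate 3 (adjusted p = 0.0544 to 0.0754), and the call against TAZ4A (adjusted p = 0.0182) without TAZ4A replicate 2 or 3 or TAZ-CAMTA1 replicate 3 (adjusted p = 0.0525 to 0.0771).

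Col22a1, known from tissue junctions such as that of muscle and tendon, had 4.64, 5.29 and 4.92 CPM in Ctrl, 3.93, 5.06 and 4.91 with TAZ4A and 20.2, 35.8 and 17.7 with TAZ-CAMTA1. TAZ-CAMTA1 lay above all other libraries, here with replicate 2 highest. Its log2 fold change was 2.14 ± 0.235 against Ctrl (adjusted p = 0.000298; 1.84 without replicate 2) and -0.09 in TAZ4A against Ctrl (adjusted p = 0.835). Col20a1 had 0.456 ± 0.0661 CPM in Ctrl, 0.527 ± 0.120 in TAZ4A and 1.01 ± 0.115 in TAZ-CAMTA1 and rose in the last (0.66, adjusted p = 0.00355). Col17a1, a membrane-spanning collagen of hemidesmosomes, had 0.486 ± 0.0616 CPM in Ctrl, 0.281 ± 0.115 in TAZ4A and 0.618 ± 0.0444 in TAZ-CAMTA1. It was higher in TAZ-CAMTA1 than in TAZ4A (0.53, limma adjusted p = 0.011). Against Ctrl it was called neither in TAZ4A (-0.35, adjusted p = 0.0811) nor in TAZ-CAMTA1 (0.18, adjusted p = 0.294). The fall in TAZ4A was called with library quality weights (adjusted p = 0.0223) and quantile normalization (adjusted p = 0.00148).

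Col7a1, the collagen of the anchoring fibrils of skin, had 11.9, 14.02 and 13.04 CPM in Ctrl, 24.2, 26.1 and 22.4 with TAZ4A and 22.9, 28.7 and 17.8 with TAZ-CAMTA1. Both construct groups lay above Ctrl and overlapped. It rose by 0.87 ± 0.161 (log2, adjusted p = 0.0044) and 0.79 ± 0.161 (adjusted p = 0.00668). The constructs differed by -0.09 (adjusted p = 0.688), or by -0.25 without TAZ-CAMTA1 replicate 2 (adjusted p = 0.0361). Col9a3, a chain of fibril-coating type IX, had 0.9702 ± 0.149, 1.26 ± 0.198 and 1.37 ± 0.410 CPM and was not called.

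**Figure D3:**
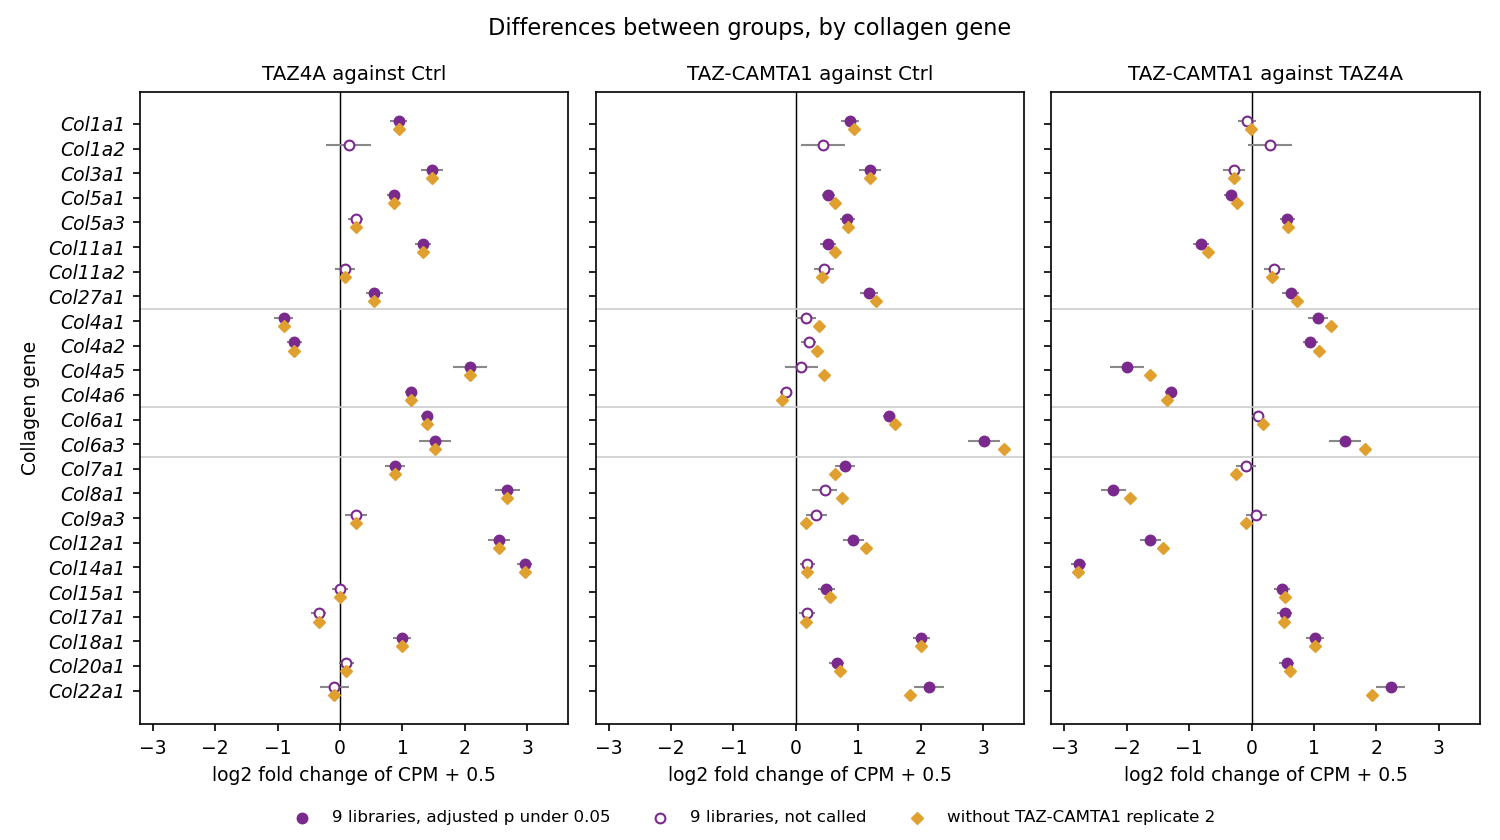
Log2 fold change of CPM + 0.5 with its standard error for each tested collagen in the 3 comparisons, from 9 libraries (circles, filled where the adjusted p is under 0.05) and without TAZ-CAMTA1 replicate 2 (diamonds, no error bars). Col4a1 and Col4a2 lie left of 0 in the first panel and right of 0 in the third, and Col4a5, Col8a1, Col12a1 and Col14a1 do the reverse.

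By their calls in the 3 comparisons, 10 of the 24 tested genes rose with both constructs. Of these 3 (Col6a3, Col18a1 and Col27a1) were higher in TAZ-CAMTA1 than in TAZ4A, 3 (Col5a1, Col11a1 and Col12a1) were lower and 4 (Col1a1, Col3a1, Col6a1 and Col7a1) were not called. A further 4 (Col4a5, Col4a6, Col8a1 and Col14a1) were higher in TAZ4A than in both other groups. Another 4 (Col5a3, Col15a1, Col20a1 and Col22a1) were higher in TAZ-CAMTA1 than in both. These patterns are from the fit of 9 libraries, and the share of all genes with each pattern was not counted. Without TAZ-CAMTA1 replicate 2, Col4a5 and Col8a1 were also called higher in TAZ-CAMTA1 than in Ctrl. Their log2 fold changes were then 0.46 and 0.73 (limma adjusted p = 1.4e-05 and 4.1e-09), and both stayed lower than in TAZ4A.

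Reads that cross an exon junction show which part of a long collagen mRNA was read. In 7 genes with at least 50 uniquely mapped junction reads in every library, the share of reads over the introns nearer the 5′ end (the first of 2 equal parts) was lower in TAZ-CAMTA1 replicate 2 than in all other libraries for 4, leaving aside Col7a1. For Col4a1 (Col4a1-201, 51 introns) it was 28.9% against 39.0 to 44.1% in the others, for Col4a2 32.0% against 45.6 to 50.7%, for Col4a5 19.8% against 39.3 to 51.2% and for Col5a1 48.1% against 56.2 to 60.2%. For Col6a1 and Col22a1 it lay within the range of the others. For Col7a1 it was 0% against 0.517 to 2.27%, near 0 in every library, so a lower 5′ share could not be seen there. In the same library 14 of the 24 tested collagens had their lowest level of the group, 5 their highest and 5 lay between. The share of all genes that were lowest in that library was not counted, so nothing particular to collagens can be read from this. The part of this 5′ share in the lower levels was not tested.

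**Figure D4:**
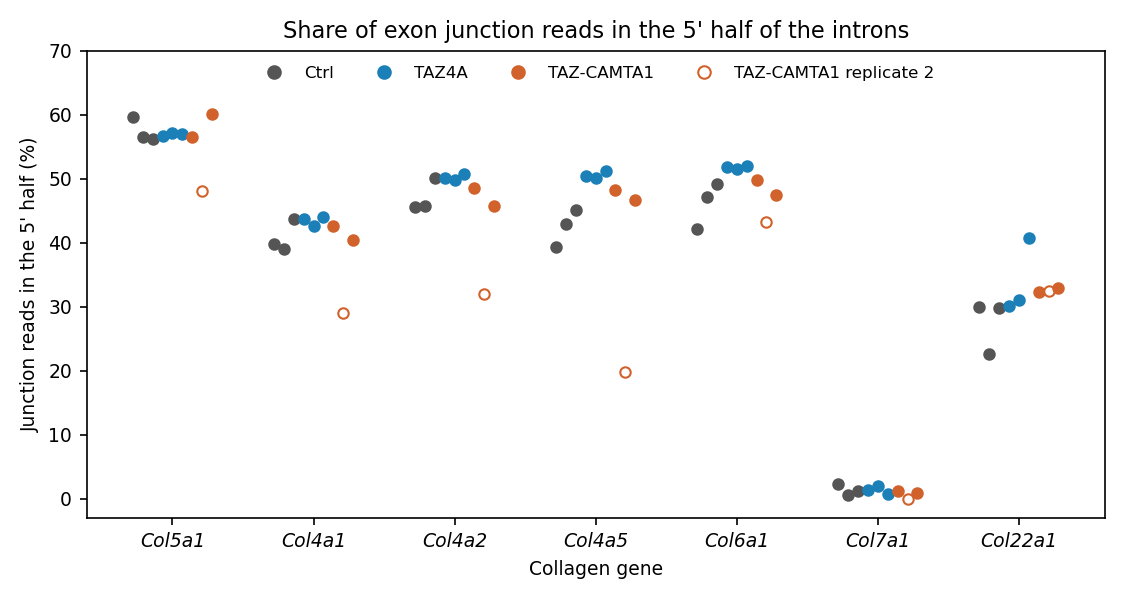
Percentage of uniquely mapped junction reads over the first of 2 equal parts of the introns, counted from the 5′ end, for 7 collagens and each library, 1 point per library. The open point, TAZ-CAMTA1 replicate 2, lies below all others for Col4a1, Col4a2, Col4a5 and Col5a1, at 28.9% for Col4a1, while all points of Col7a1 lie near 0.

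Junction reads were also scaled to the uniquely mapped junction reads of each library (rpm). Col4a1 had 6106 ± 363 rpm in Ctrl and 3559 ± 181 in TAZ4A, and Col4a5 had 35.8 ± 4.10 and 165 ± 3.24. Col8a1 had 3.87 ± 1.10 in Ctrl and 27.6 ± 0.854 in TAZ4A. Col6a3 had 2.89 ± 0.768, 9.95 ± 0.549 and 31.6 ± 14.1 in Ctrl, TAZ4A and TAZ-CAMTA1. Exact permutation tests gave p = 0.1 for each of these differences, the smallest possible for 3 against 3. Other differences in junction reads were less clear. Col5a1 in TAZ-CAMTA1 against Ctrl gave an exact permutation p = 0.2, and Col4a2 between the constructs p = 0.3, although limma on CPM called both. Col8a1 in TAZ-CAMTA1 against Ctrl had a log2 ratio of -0.30 in junction reads (exact permutation p = 1), opposite in sign to the 0.46 on CPM, which was not called. By library Col8a1 had 6.68, 0.673 and 6.38 rpm in TAZ-CAMTA1 and 5.15, 3.28 and 3.20 in Ctrl. Only TAZ-CAMTA1 replicate 2 lay below Ctrl. That library was also the lowest of its group for Col5a1 (309.9, 182.8 and 228.5 rpm) and Col4a2 (3937.5, 1791.9 and 3331.9 rpm).

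The reads of 2 genes covered only part of the annotated transcript. Parts were divided after the reads along the genes had been seen. In Col7a1 (Col7a1-202, 118 introns) introns 100 to 118 held 4396 junction reads over all libraries and introns 1 to 99 held 133. The 3′ part had 35.3 ± 3.43 rpm in Ctrl, 65.9 ± 4.21 in TAZ4A and 66.9 ± 19.1 in TAZ-CAMTA1, and the 5′ part 1.36 ± 0.711, 2.49 ± 0.947 and 1.18 ± 0.326. Most junction reads of Col7a1 thus came from the last introns.

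In Col22a1 (Col22a1-201, 63 introns, minus strand of chromosome 15) introns 1 to 22 held 7 reads in all, introns 23 to 42 held 2734 and introns 43 to 63 held 379. Introns 23 to 42 had 13.1 ± 3.10 rpm in Ctrl, 12.9 ± 1.04 in TAZ4A and 86.6 ± 43.5 in TAZ-CAMTA1 (66.8, 136 and 56.5 by library). A junction that is not annotated in GENCODE vM21, chr15:71922947-71929343, joins exon 23 to a position inside intron 22. It held 3, 6 and 6 reads in Ctrl, 14, 12 and 9 with TAZ4A and 22, 40 and 10 with TAZ-CAMTA1.

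**Figure D5:**
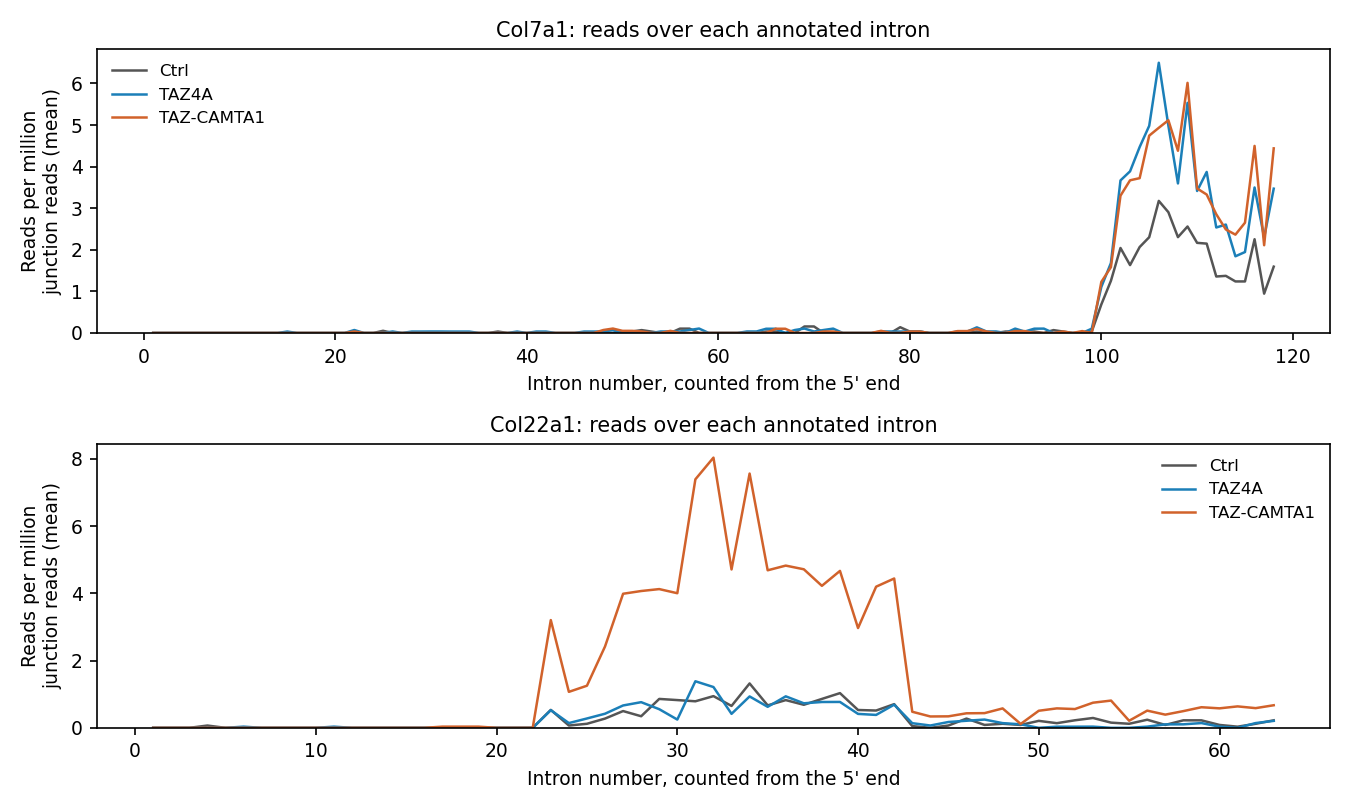
Mean junction reads (rpm) over each annotated intron of Col7a1 and Col22a1, counted from the 5′ end, with 1 line per group of 3 libraries. Introns 100 to 118 of Col7a1 hold 4396 of its reads and introns 1 to 99 hold 133, and introns 23 to 42 of Col22a1 hold 2734.

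Col4a5 has a pair of exons of 9 bases each, exons 43 and 44 of Col4a5-201 (chrX:141658532-141658540 and chrX:141664676-141664684), shown in capitals between 21 bases of exons 42 and 45, as read from the GENCODE vM21 transcript (GRCm38, plus strand).
Col4a5 exons 43 and 44: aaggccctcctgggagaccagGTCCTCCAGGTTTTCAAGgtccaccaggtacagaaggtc

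Across the libraries 11 reads joined exon 42 directly to exon 45, all of them from TAZ4A libraries, where the gene was most read. Another 3 reads joined exon 42 to exon 43 and 1 joined exon 44 to exon 45, while 0 joined exon 43 to exon 44. Skipping of both exons was thus read directly, a junction between them was not, and the depth was too low to compare groups.

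Of 18 genes for the folding and modification of collagen chains, 15 were tested. In TAZ4A against Ctrl 3 rose and 3 fell, where 13.2% of all genes were higher and 11.7% lower. The median log2 fold change was -0.0026 beside -0.0089 for all genes. Plod2, a lysyl hydroxylase of the chain ends, rose from 17.6 to 46.5 CPM (1.38, adjusted p = 0.000244), and P4ha1, the main catalytic subunit of prolyl hydroxylase, rose by 0.70 (adjusted p = 0.000112). Plod1 and Plod3, the other lysyl hydroxylases, fell by 0.53 and 0.37 (adjusted p = 0.000388 and 0.0153). Against Ctrl, TAZ-CAMTA1 had 7 higher and 0 lower, where 16.8% of all genes were higher and 15.3% lower. Without replicate 2 it had 7 and 3, so that 10 of 15 were called where 60.9% of all genes were. With 9 libraries Plod2 was at 63.5 CPM in TAZ-CAMTA1 (1.80, adjusted p = 7.38e-05) and P4ha2 rose from 52.7 to 129 CPM (1.28, adjusted p = 6.49e-06). Between the constructs 7 were higher in TAZ-CAMTA1 and 1 lower, where 19.4% of all genes were higher and 18.5% lower. Plod1 (1.17, adjusted p = 3.91e-06) and P4ha2 (0.92, adjusted p = 2.76e-05) led, and P4hb, the other prolyl hydroxylase subunit, was lower (-0.23, adjusted p = 0.0369).

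Of 13 genes for propeptide removal and cross-linking, 8 were tested. In TAZ4A against Ctrl 7 rose and 1 fell, with a median of 1.44. Pcolce, an enhancer of propeptide cleavage, went from 0.307 to 4.34 CPM (2.60, adjusted p = 2.35e-05), Loxl1, a lysyl oxidase, from 0.247 to 1.65 CPM (1.53, adjusted p = 0.000684), and Bmp1, the C-propeptide protease, fell by 0.54 (adjusted p = 0.000738). Pcolce and Loxl1 reached 0.5 CPM in construct libraries alone, so their higher level there was a condition of their being tested. TAZ-CAMTA1 had 7 higher and 0 lower than Ctrl, with a median of 1.01. Adamts14, an N-propeptide protease, rose from 0.828 to 4.50 CPM (1.91, adjusted p = 6.33e-06) and Pcolce2 from 3.66 to 8.42 CPM (1.09, adjusted p = 0.000556). In TAZ-CAMTA1 against TAZ4A 2 were higher and 3 lower, among them Bmp1 (1.04, adjusted p = 1.67e-05), Adamts14 (0.46, adjusted p = 0.00945), Pcolce (-2.14, adjusted p = 6.56e-05) and Pcolce2 (-0.43, adjusted p = 0.0381). These counts stand beside 24.9, 32.1 and 37.9% of all genes called in the 3 comparisons. Without TAZ-CAMTA1 replicate 2 they were 7 higher and 1 lower, 7 and 0, and 3 and 4. In that fit 58.7, 60.9 and 63% of all genes were called.

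Of 10 collagen receptors, 6 were tested. Ddr2, a receptor tyrosine kinase activated by fibrillar collagen, had 4.09, 3.53 and 3.60 CPM in Ctrl, 88.3, 83.8 and 90.9 with TAZ4A and 152, 75.5 and 148 with TAZ-CAMTA1. It rose by 4.38 and 4.82 (log2, adjusted p = 4.19e-06 and 4.62e-06). In TAZ4A against Ctrl 2 receptors rose, Ddr2 and Ddr1 (0.53, adjusted p = 0.00131), and in TAZ-CAMTA1 against Ctrl 1 rose, Ddr2. In TAZ-CAMTA1 against TAZ4A 0 were higher and 2 lower, Itgb1 (-0.32, adjusted p = 0.0451) and Ddr1 (-0.31, adjusted p = 0.0162). Without TAZ-CAMTA1 replicate 2 the receptor counts were 3 higher and 1 lower, 3 and 2, and 3 and 2. These 4, 5 and 5 of 6 stand beside 58.7, 60.9 and 63% of all genes called in that fit, and the 2, 1 and 2 of 6 with 9 libraries beside 24.9, 32.1 and 37.9%.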

How the data were processed

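Poly-A RNA was prepared with a stranded kit and sequenced, per the labels. Per the submitters' processing notes the authors used bcl2fastq, FastQC, STAR, featureCounts and edgeR on mm10. Versions, settings and use of strand in counting are not given in the sources used here, so reads of genes that overlap on opposite strands may be mixed. The deposited gene values, called CPM by the authors, are a signal, reads per gene over a scaled library size. Their sums differ between libraries (976997 to 1028370), and 100% of values were whole multiples of 1 read within 0.01. The design assumed CPM, and the planned test was kept. Deposited TPM served for levels between genes, and the deposited junction files hold counts of reads. Log2 fold changes and p-values in the authors' deposited table are used only as theirs.

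Levels were tested with limma-trend (limma 3.58.1, R 4.3.3) on log2(CPM + 0.5), with 9 libraries in 1 fit and 6 residual degrees of freedom. A gene entered with 0.5 CPM or more in 3 or more libraries, which 12350 of 17565 did, and p-values were adjusted by Benjamini-Hochberg at 0.05. These fold changes understate those of low genes. Ratios of few reads carry exact 95% counting intervals. The tests were tried on simulated data. Members and lists were chosen with earlier results of these data known. Named genes are all collagens and, from each list of the collagen machinery, up to 2 called genes per direction. Junctions were matched to GENCODE vM21, promoters to RefSeq GRCm38.p6. Alternatives included edgeR 4.0.16 and DESeq2 1.42.0 on the recovered reads.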

Additional observations from a re-analysis of the deposited data

How the results depend on the processing

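No collagen call reversed its direction under any alternative. Among values of called collagens that were still tested, 11 under other settings lost the call and 570 kept it. With a library left out 19 lost it and 383 kept it. Called collagens that were not tested in a setting are not in these counts. On TPM, where 15 collagens were tested, 9 were higher in TAZ4A than Ctrl, 8 in TAZ-CAMTA1 than Ctrl, and 6 higher and 3 lower in TAZ-CAMTA1 than TAZ4A; TPM also moved the median of all genes to -0.13 in the last comparison. Over all genes, library quality weights called 7432, 7255 and 8272 in the 3 comparisons, and fits of only the 6 libraries compared called 7176 in TAZ4A against Ctrl and 2424 in TAZ-CAMTA1 against Ctrl. With 1 library left out the counts ranged from 1935 to 7193, 2612 to 7458 and 3078 to 7721, each highest without TAZ-CAMTA1 replicate 2. In these fits collagens lower in TAZ-CAMTA1 than TAZ4A ranged from 3 to 8, and collagens higher in TAZ4A than Ctrl from 10 to 14. CPM rescaled to the same sum split the calls of TAZ4A against Ctrl into 1967 higher and 1106 lower, against 1630 and 1447. edgeR on the recovered reads called 3078, 3942 and 4674 genes and DESeq2 3669, 4664 and 5392. For collagens edgeR gave 14 higher and 2 lower, 14 and 0, and 10 and 7, and DESeq2 gave 14 and 2, 15 and 0, and 10 and 7.

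The remaining reversals were all of values not called. Under quantile normalization the log2 fold changes in TAZ4A against Ctrl became -0.31 for Col1a2, -0.0725 for Col5a3, -0.0606 for Col9a3, -0.30 for Col11a2, -0.33 for Col15a1 and -0.30 for Col20a1. In TAZ-CAMTA1 against Ctrl they became -0.14 for Col4a1 and -0.10 for Col17a1, and between the constructs 0.0045 for Col1a1. The GENCODE vM4 table gave -0.016 for Col15a1 in TAZ4A against Ctrl and 0.0092 for Col1a1 between the constructs, where TPM gave -0.014 for Col6a1 and -0.013 for Col9a3 and quality weights -0.0904 for Col9a3. With 1 library left out the ranges in TAZ4A against Ctrl were -0.065 to 0.16 for Col1a2, -0.10 to 0.22 for Col11a2, -0.10 to 0.0695 for Col15a1 and -0.15 to 0.011 for Col22a1. They were -0.10 to 0.46 for Col4a5 in TAZ-CAMTA1 against Ctrl, and between the constructs -0.25 to 0.0840 for Col7a1 and -0.0920 to 0.22 for Col9a3. The causes were not tested.

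Whether same-numbered replicates paired was not decided, because differently numbered replicates were not compared. For same-numbered replicates, the correlations of deviations from the group means were 0.064, 0.138 and 0.175 between Ctrl and TAZ4A. They were -0.120, 0.523 and 0.395 between Ctrl and TAZ-CAMTA1, and 0.011, 0.321 and 0.263 between the constructs. With a replicate block 2890, 3881 and 4619 genes were called, and among collagens 14 higher and 2 lower, 14 and 0, and 10 and 6, with Col5a1 between the constructs no longer called (adjusted p = 0.0537).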
